A study of Mus musculus with 7 samples.

Results

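The collagen genes encode the chains of the main structural proteins of the extracellular matrix, which in the testis are products of somatic cells rather than of spermatocytes. The set held every gene symbol of the form Col, a number, a and a number that was present once in both deposited H3K27me3 count files, which gave 44 genes of 23220 symbols. It comprised 11 fibrillar collagens, 8 basement membrane collagens and 25 other collagens. Membership rested on the symbol alone, not on any measured value. All 44 genes had at least 20 reads over both stages and were tested.

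Spermatocytes from wild-type (WT) CD1 mice were taken at postnatal days 17 (P17) and 12 (P12) and their chromatin was immunoprecipitated and sequenced with an antibody to H3K27me3, the repressive histone mark laid down by Polycomb repressive complex 2. The cells had been released from testes with trypsin and collagenase, enriched on Percoll and fixed with formaldehyde. The P17 file pooled 2 replicates and held 26664736 counted reads, and the P12 file came from 1 replicate and held 13462873 reads. With 1 file per stage no test between stages was possible: every interval given here covers counting error only and compares the files, not the stages. The other samples of the series, H3K4me3 and input at both stages and the Polycomb subunit EED at P17, were not used here for the collagens. Counts of a repressive mark cannot check the purity of the cells against expressed marker genes, and a different mix of cells cannot be told apart from a different amount of the mark per cell.

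Collagen chains wind together in groups of matching or different chains, and each collagen type is named by a Roman numeral. Fibrillar collagens build the banded fibrils of bone, skin, tendon and cartilage. Type IV collagen forms the sheets of basement membranes, including that of the seminiferous tubule, which Sertoli cells and peritubular myoid cells produce. Genes of such somatic programmes are frequent targets of H3K27me3 in cell types that do not use them.

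As a family, the collagens kept nearly the same share of the H3K27me3 reads at both stages. Together they took 0.490% of counted reads at P17 and 0.499% at P12. These reads include background, since no input subtraction was recorded and peaks were not used. Whether a collagen gene carried the mark above background was not tested. Their median log2 ratio, P17 over P12, was -0.04, against -0.08 for all 21808 genes tested, which is called the typical gene below. None of the 44 was over 2-fold different in either direction with an interval that excluded a ratio of 1, against a background of 2.57% of all genes over 2-fold higher and 0.335% over 2-fold lower. The 44 log2 ratios ran from -0.36 to 0.69, and their 10th and 90th percentiles were -0.15 and 0.18, against -0.34 and 0.47 for all genes.

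Smaller shifts relative to the typical gene were common, in shares that lay near those of other genes with many reads. The 95% interval lay wholly above the typical gene for 17 collagens and wholly below it for 6, and spanned it for 21. Over all genes the shares were 21.2% above and 10.1% below. Collagen genes carried many reads, a median of 3805 over both stages against 610 for all genes, and more reads give narrower intervals. Among the 7876 genes with at least 1000 reads, the background was 36.4% above and 16.2% below. Of the 40 collagens with at least 1000 reads, 17 were above, which is 42.5%, and 6 were below, which is 15.0%. Both shares lie near that background and are not read as a property of the collagens.

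**Figure D1:**
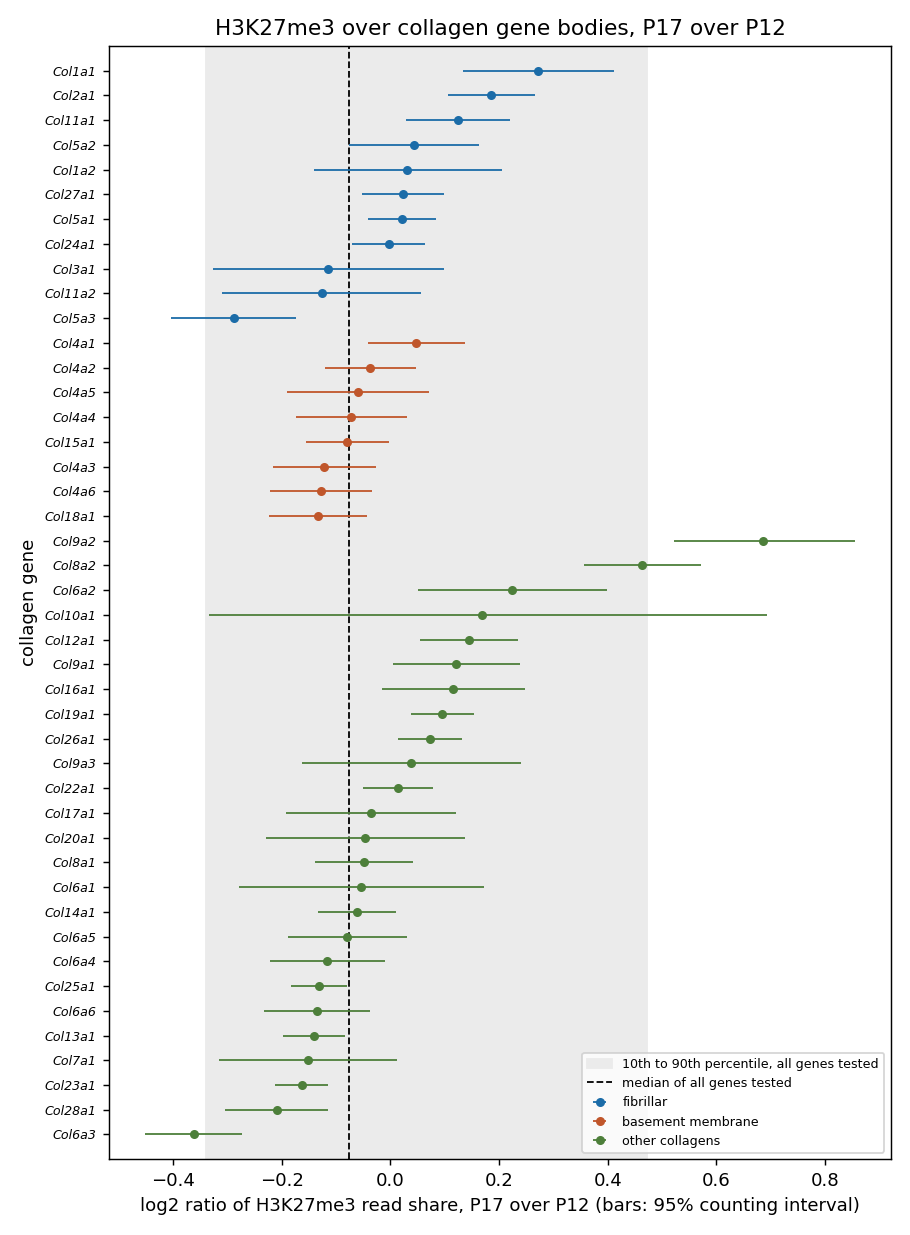
Log2 ratio of H3K27me3 read share, P17 over P12, for each of the 44 collagen genes, with 95% counting intervals, by class; the dashed line is the median of all genes tested (-0.08) and the grey band runs between their 10th and 90th percentiles. Col9a2 lies above the band, at 0.69, and Col6a3 just below it, at -0.36, while the basement membrane genes stay within -0.13 to 0.05.

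The members at the ends of the range belonged to different collagen types. Col9a2 and Col8a2 had the highest log2 ratios, and Col6a3 and Col5a3 the lowest. Their promoter windows are shown because these genes bound the range of the family on either side, and CpG-rich promoters are a known feature of Polycomb targets in mammals. The windows are from RefSeq (GRCm38.p6) and reach from 250 bases before the start of the gene to 50 bases after it. They are written 5′ to 3′ on the strand of the gene, with every CpG dinucleotide in capitals.
Col9a2, chr4:121039316-121039615, plus strand: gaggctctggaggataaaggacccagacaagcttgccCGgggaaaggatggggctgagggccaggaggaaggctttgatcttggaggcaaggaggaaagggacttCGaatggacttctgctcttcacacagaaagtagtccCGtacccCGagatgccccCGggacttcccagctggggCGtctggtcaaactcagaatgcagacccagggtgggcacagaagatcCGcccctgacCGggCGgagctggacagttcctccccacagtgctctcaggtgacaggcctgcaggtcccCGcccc
Col8a2, chr4:126286544-126286843, plus strand: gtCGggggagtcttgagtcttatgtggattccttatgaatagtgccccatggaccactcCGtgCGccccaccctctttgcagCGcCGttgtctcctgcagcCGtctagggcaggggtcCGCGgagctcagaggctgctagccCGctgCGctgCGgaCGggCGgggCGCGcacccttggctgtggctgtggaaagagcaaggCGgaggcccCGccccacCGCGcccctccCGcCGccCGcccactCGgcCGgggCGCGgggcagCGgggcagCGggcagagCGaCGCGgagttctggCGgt
Col5a3, chr9:20815018-20815317, minus strand: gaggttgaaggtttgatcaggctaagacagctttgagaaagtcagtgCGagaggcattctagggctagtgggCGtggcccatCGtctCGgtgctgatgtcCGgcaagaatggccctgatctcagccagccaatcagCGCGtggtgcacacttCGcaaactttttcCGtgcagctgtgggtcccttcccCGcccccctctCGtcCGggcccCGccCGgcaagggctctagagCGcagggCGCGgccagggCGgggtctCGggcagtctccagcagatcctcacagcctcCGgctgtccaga
Col6a3, chr1:90843922-90844221, minus strand: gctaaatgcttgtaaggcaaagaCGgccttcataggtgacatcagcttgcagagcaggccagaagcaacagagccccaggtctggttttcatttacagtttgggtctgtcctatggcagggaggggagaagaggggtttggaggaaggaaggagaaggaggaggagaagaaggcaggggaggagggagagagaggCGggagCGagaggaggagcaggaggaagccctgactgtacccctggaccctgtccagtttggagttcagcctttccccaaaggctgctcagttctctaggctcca

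The CpG counts of these windows did not follow the order of the ratios. Col9a2 had 10 CpG in 300 bases and Col8a2 had 32, while Col5a3 had 20 and Col6a3 had 3. A promoter window was found for 35 of the 44 collagens; the 3 genes with 2 windows were given the mean of both. Over these 35 genes the rank correlation (Spearman) of CpG count with the log2 ratio was 0.09, and over the 15790 tested genes with a window it was 0.01. These are descriptions across genes that share both libraries and were given no p-value. The collagen windows held a median of 11 CpG, against 15 for the tested genes, and a GC content of 60.0% against 57.2%. The motif TATAAA, searched on both strands, occurred in the windows of 5 collagens (Col3a1, Col10a1, Col11a2, Col13a1 and Col17a1), which is 14.3%, against 13.6% of all windows in the table.

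**Figure D2:**
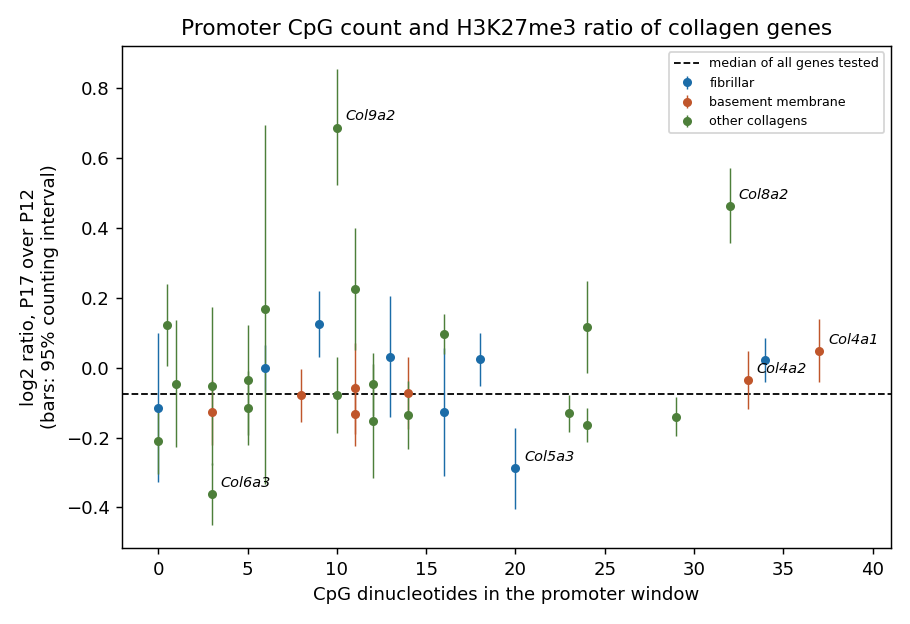
CpG dinucleotides in the 300-base promoter window (x axis) and log2 ratio of H3K27me3 reads, P17 over P12 (y axis), for 35 collagen genes with 95% counting intervals. High and low ratios occur at both low and high CpG counts: Col9a2 has 10 CpG, Col8a2 has 32 and Col5a3 has 20.

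Among the 11 fibrillar collagens, 7 had intervals above the typical gene and 1 below, with a median log2 ratio of 0.02. Of all genes with at least 1000 reads, 36.4% were above and 16.2% below, and with no test nothing particular to a class or list is read from this count or those that follow. Col1a1, which encodes the major chain of type I collagen of bone and skin, had 1438 reads, or 53.9 CPM (reads scaled to 1000000 counted reads), at P17 and 601 reads, or 44.6 CPM, at P12. Its log2 ratio of 0.27 (95% counting interval 0.13 to 0.41) was the highest of the class. Its partner chain gene Col1a2 had 31.2 CPM at P17 and 30.5 CPM at P12, a log2 ratio of 0.03 (-0.14 to 0.21). Of the type I genes, Col1a1 was above the typical gene and the interval of Col1a2 spanned it.

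The calls of the cartilage fibril genes against the typical gene also differed. Col2a1, the type II collagen gene of cartilage, had 154 CPM at P17 and 136 CPM at P12, with a log2 ratio of 0.19 (0.11 to 0.27). Col11a1, a chain of the type XI collagen of cartilage fibrils, stood at 0.12 (0.03 to 0.22), with 106 CPM at P17 and 97.4 CPM at P12. Its partner Col11a2 had a log2 ratio of -0.13 (-0.31 to 0.06), with 26.0 CPM at P17 and 28.4 CPM at P12. Of these 3 genes, Col2a1 and Col11a1 were above the typical gene and the interval of Col11a2 spanned it.

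Col3a1, the type III collagen gene of vessels and soft tissue, had 19.6 CPM at P17 and 21.2 CPM at P12. Its log2 ratio of -0.11 (-0.33 to 0.10) did not differ from the typical gene beyond counting error. Type V collagen, which sets the width of fibrils, had its main chain genes Col5a1 and Col5a2 at 0.02 (-0.04 to 0.08) and 0.04 (-0.08 to 0.16), both above the typical gene. The call of Col5a2 was lost with at least 100 reads required, with a pseudocount of 5 reads, and against the median of genes with at least 1000 reads (-0.05). Its minor chain gene Col5a3 was the only fibrillar gene below the typical gene, at -0.29 (-0.40 to -0.17), with 1602 reads or 60.1 CPM at P17 and 988 reads or 73.4 CPM at P12. The developmental fibrillar genes Col24a1 and Col27a1 had many reads and small ratios. They stood at -0.00 (-0.07 to 0.06) and 0.02 (-0.05 to 0.10), both above the typical gene, but Col24a1 was not above the median of genes with at least 1000 reads.

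Of the 3 classes, the basement membrane collagens had the narrowest range of ratios. They were also the smallest class, and a range widens with more genes and with fewer reads per gene. Of 8 genes, only Col4a1 had an interval above the typical gene and none had one below, with a median log2 ratio of -0.08 and a range of -0.13 to 0.05. Among genes with at least 1000 reads, 36.4% were above and 16.2% below. Col4a1 and Col4a2 encode the chains of the type IV collagen found in nearly all basement membranes. Col4a1 had 116 CPM at P17 and 112 CPM at P12, and a log2 ratio of 0.05 (-0.04 to 0.14). Col4a2 had 128 CPM at P17 and 132 CPM at P12, and a log2 ratio of -0.04 (-0.12 to 0.05).

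These 2 genes lie head to head and share a promoter, which is shown because the type IV genes occur as such neighbouring pairs. The RefSeq windows of Col4a1 and Col4a2 (GRCm38.p6) overlap by 78 bases, in capitals here on the Col4a2 strand, 5′ to 3′. The windows were rich in CpG, with 37 for Col4a1 and 33 for Col4a2.
Col4a2, chr8:11312555-11312854, plus strand: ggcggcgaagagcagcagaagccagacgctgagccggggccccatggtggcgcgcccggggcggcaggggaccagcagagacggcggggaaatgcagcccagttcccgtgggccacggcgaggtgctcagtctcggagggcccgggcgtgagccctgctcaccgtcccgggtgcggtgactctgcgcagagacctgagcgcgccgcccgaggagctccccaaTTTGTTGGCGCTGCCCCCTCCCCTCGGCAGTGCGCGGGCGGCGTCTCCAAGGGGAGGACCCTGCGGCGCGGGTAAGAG

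The kidney, lung and cochlear chains Col4a3 and Col4a4, mutated in Alport syndrome, stood at -0.12 (-0.22 to -0.03) and -0.07 (-0.17 to 0.03). Col4a3 had 95.3 CPM at P17 and 104 CPM at P12, and Col4a4 had 84.3 CPM at P17 and 88.7 CPM at P12. The X-linked pair Col4a5 and Col4a6 stood at -0.06 (-0.19 to 0.07) and -0.13 (-0.22 to -0.03). Col4a5 had 52.8 CPM at P17 and 55.0 CPM at P12, and Col4a6 had 98.5 CPM at P17 and 108 CPM at P12. The intervals of all 4 genes spanned the typical gene. Col15a1 and Col18a1, whose products sit in the basement membrane zone and release the antiangiogenic fragments restin and endostatin, stood at -0.08 (-0.16 to -0.00) and -0.13 (-0.22 to -0.04).

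Summed over genes, the fibrillar class held 1109 CPM at P17 and 1082 CPM at P12, and the basement membrane class held 829 CPM at P17 and 871 CPM at P12. The other collagens held 2966 CPM at P17 and 3039 CPM at P12. The log2 ratio of the fibrillar sum was higher than that of the basement membrane sum by 0.11 (95% counting interval 0.06 to 0.15). It was higher than that of the other collagens by 0.07 (0.04 to 0.10). The other collagens exceeded the basement membrane class by 0.04 (0.00 to 0.07). These differences do not depend on library scaling, but their intervals leave out the spread between genes. Single genes of the classes overlapped: fibrillar ratios ran from -0.29 to 0.27 around the whole basement membrane range.

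Among the other collagens, 6 of 9 fibril-associated genes stood above the typical gene and none below, against 36.4% and 16.2% of genes with at least 1000 reads, with a median log2 ratio of 0.10. These collagens attach to the surface of fibrils. Col9a2, a chain of the type IX collagen that coats cartilage fibrils, had 1247 reads or 46.8 CPM at P17 and 391 reads or 29.0 CPM at P12. Its log2 ratio of 0.69 (0.52 to 0.85), the highest of all 44 collagens, lay at percentile 94.1 of all genes tested. The other chains of type IX, Col9a1 and Col9a3, stood at 0.12 (0.00 to 0.24) and 0.04 (-0.16 to 0.24). Col9a1 had 70.5 CPM at P17 and 64.8 CPM at P12, and Col9a3 had 23.2 CPM at P17 and 22.6 CPM at P12.

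Col12a1, active in tendon and ligament, stood at 0.14 (0.05 to 0.24), Col16a1 at 0.12 (-0.02 to 0.25) and Col19a1 at 0.10 (0.04 to 0.15). Col22a1, a gene of the muscle-tendon junction, stood at 0.01 (-0.05 to 0.08), above the typical gene. The intervals of Col14a1 at -0.06 and Col20a1 at -0.05 spanned the typical gene. Apart from Col9a2, the fibril-associated genes ran only as high as Col12a1.

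The network-forming genes Col8a1 and Col8a2 encode the chains of type VIII collagen, found under the corneal endothelium and in vessel walls. Col8a2 had 2623 reads or 98.4 CPM at P17 and 961 reads or 71.4 CPM at P12. Its log2 ratio of 0.46 (0.36 to 0.57) was second among the collagens, at percentile 89.6 of all genes. Col8a1 had 109 CPM at P17 and 113 CPM at P12, and its ratio of -0.05 (-0.14 to 0.04) spanned the typical gene. Col10a1, the gene of hypertrophic cartilage, had the fewest reads, 107 at P17 and 48 at P12, and its ratio of 0.17 carried a wide interval of -0.33 to 0.69.

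Type VI collagen forms beaded filaments around cells. Col6a3 had 2581 reads or 96.8 CPM at P17 and 1675 reads or 124 CPM at P12. Its log2 ratio of -0.36 (-0.45 to -0.27) was the lowest of the 44, at percentile 8.60 of all genes. Col6a2 was above the typical gene at 0.22 (0.05 to 0.40), with 34.1 CPM at P17 and 29.2 CPM at P12, while Col6a1 at -0.05 (-0.28 to 0.17) spanned it. The alternative third-chain genes Col6a4, Col6a5 and Col6a6, which lie next to each other, stood at -0.12, -0.08 and -0.14, and all of their intervals spanned the typical gene.

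Of 4 transmembrane collagens, 3 were below the typical gene and 0 above, against 16.2% and 36.4% of genes with at least 1000 reads. The 4 log2 ratios lay at percentiles 33.5 to 56.9 of all genes tested. Col23a1 stood at -0.16 (-0.21 to -0.11), Col13a1, a gene of the neuromuscular junction, at -0.14 (-0.20 to -0.08) and Col25a1 at -0.13 (-0.18 to -0.08), all below the typical gene. They had some of the highest read counts of the family, 354, 259 and 313 CPM at P17 and 396, 286 and 343 CPM at P12, so that small shifts exceeded counting error. Col17a1, a hemidesmosome gene of skin, stood at -0.04 (-0.19 to 0.12), with 36.9 CPM at P17 and 37.9 CPM at P12. Of the remaining genes, Col28a1 was below the typical gene at -0.21 (-0.30 to -0.11) and Col7a1, which encodes the anchoring fibrils of skin, spanned it at -0.15 (-0.31 to 0.01). Col26a1, first described in testis and ovary, was above it at 0.07 (0.01 to 0.13), with 264 CPM at P17 and 251 CPM at P12.

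**Figure D3:**
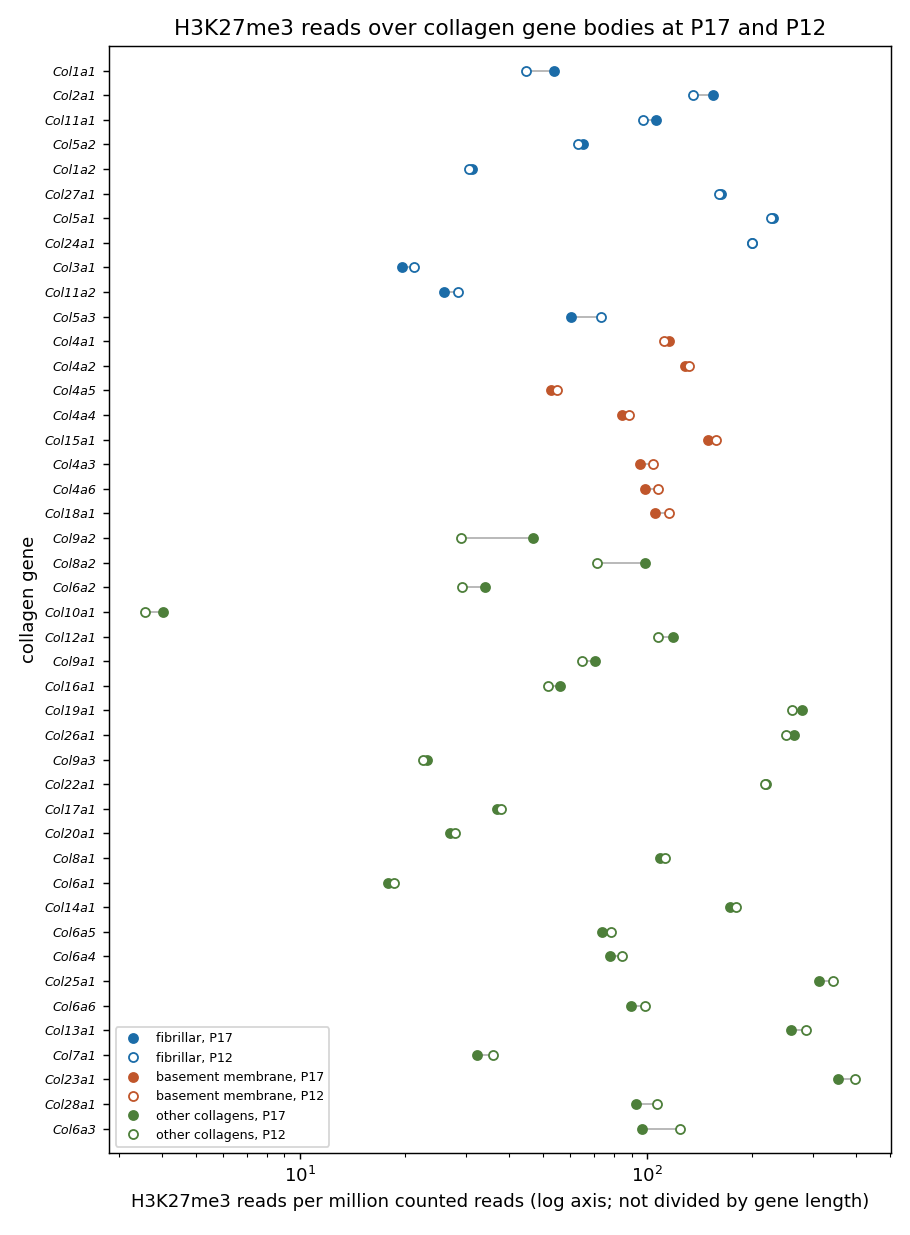
H3K27me3 CPM over each collagen gene body at P17 (filled) and P12 (open), on a log axis. Most pairs of points nearly coincide; Col9a2 and Col8a2 are farther right at P17, and Col6a3 and Col5a3 farther left. Reads were not divided by gene length, so levels are not ordered between genes.

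Some chains that assemble into the same collagen type had different ratios. The difference between 2 genes in log2 ratio needs no library scaling, since it is the odds ratio of their 4 counts. It was computed for 18 pairs, 14 of partner chains and 4 further pairs of neighbouring genes. Of the partner pairs, 4 were also neighbours. Not every pair of partner chains was included: Col6a2 with Col6a3, Col2a1 with Col11a1 and Col5a2 with Col5a3, among others, were not. The counts and the order of the differences hold for the chosen pairs only. Of the 10 partner pairs that were not neighbours, 8 had a 95% counting interval that excluded 0, and 5 did so with the interval widened to 99.7% for the 18 pairs. Of the 8 neighbouring pairs none did, at either width. Over all 946 pairs of collagen genes the 95% interval excluded 0 in 44.7%, and over the 14 partner pairs in 8. The share of all pairs at the wider interval was not computed. With pairs chosen by hand and no test, the count of differing pairs is not read as a property of partner chains. With different read counts behind each pair, the lack of differing neighbouring pairs does not show that neighbours act alike.

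**Figure D4:**
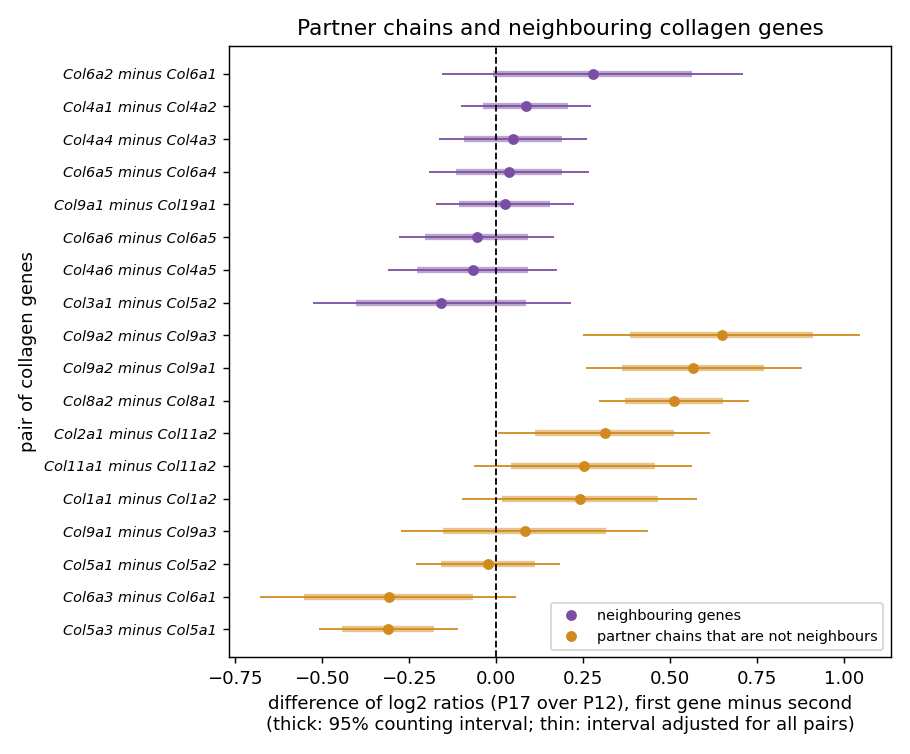
Difference of log2 ratios between collagen genes, first minus second, for 18 pairs, with 95% counting intervals (thick) and intervals adjusted for all pairs (thin). The intervals of the 8 neighbouring pairs all cross 0, and those of Col9a2 minus Col9a3, Col9a2 minus Col9a1, Col8a2 minus Col8a1, Col2a1 minus Col11a2 and Col5a3 minus Col5a1 exclude it at both widths.

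The largest of these differences was within type IX collagen, where Col9a2 exceeded Col9a3 by 0.65 (adjusted interval 0.25 to 1.05) and Col9a1 by 0.57 (0.26 to 0.88). Col9a1 and Col9a3 differed by 0.08, with an adjusted interval of -0.27 to 0.44. In type VIII collagen Col8a2 exceeded Col8a1 by 0.51 (0.30 to 0.73). Col5a3 lay below Col5a1, at a difference of -0.31 (-0.51 to -0.11). Col2a1, whose product also serves as a chain of type XI collagen, exceeded Col11a2 by 0.31 (0.01 to 0.61). The difference of 0.24 between Col1a1 and Col1a2 excluded 0 at 95% (0.02 to 0.46) but not with the adjusted interval (-0.10 to 0.58). The same held for Col11a1 minus Col11a2, at 0.25 (0.04 to 0.46, adjusted -0.06 to 0.56). It also held for Col6a3 minus Col6a1, at -0.31 (-0.55 to -0.07, adjusted -0.68 to 0.06).

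Neighbouring pairs had differences from 0.02 to 0.28 in absolute size. Col4a1 exceeded Col4a2 by 0.08 (adjusted interval -0.10 to 0.27), and Col9a1 exceeded its neighbour Col19a1 by 0.02 (-0.17 to 0.22). Col3a1 lay below its neighbour Col5a2 at a difference of -0.16 (-0.53 to 0.21). The largest difference among neighbours, 0.28 between Col6a2 and Col6a1, had the widest adjusted interval of them, -0.16 to 0.71.

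Genes that make, process, bind and degrade collagen, and other matrix genes, were described beside the collagens. Of 92 symbols in these lists, some of them alternative names of the same gene, 86 had an entry and 85 were tested. Their median log2 ratio was 0.02, with 40 (47.1%) above and 8 (9.41%) below the typical gene, and 1 gene was over 2-fold higher. Over all genes the shares were 21.2% above, 10.1% below and 2.57% over 2-fold higher. Among the 57 of them with at least 1000 reads, 32 were above, which is 56.1%, against the 36.4% of all genes of that depth. In the same 57 genes, 6 were below, which is 10.5%, against 16.2%.

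In the biosynthesis list, 10 of 20 tested genes were above the typical gene and 2 below, with a median of 0.17. Over all genes the shares were 21.2% and 10.1%, and over genes with at least 1000 reads 36.4% and 16.2%. The list had a median of 1102 reads over both stages, against 610 for all genes. Serpinh1, which encodes the collagen chaperone Hsp47, had 409 reads or 15.3 CPM at P17 and 118 reads or 8.76 CPM at P12, a log2 ratio of 0.80 (0.51 to 1.12). Fkbp10, a prolyl isomerase gene of the same folding step, also stood at 0.80 (0.50 to 1.13), and the lysyl hydroxylase gene Plod1 at 0.59 (0.39 to 0.80). The lowest ratio was that of Sec23a, a gene of vesicle coats that carry collagen out of the endoplasmic reticulum, at -0.32 (-0.49 to -0.15). Mia3 was listed at 0 reads at both stages.

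Among 16 processing and cross-linking genes, 10 were above the typical gene and none below, with a median of 0.15. Over all genes the shares were 21.2% and 10.1%, and over genes with at least 1000 reads 36.4% and 16.2%. These 16 genes had a median of 2713.5 reads over both stages, so the latter shares are the closer background. Pcolce, which encodes an enhancer of propeptide removal, was highest at 0.82 (0.45 to 1.21), on 267 reads at P17 and 76 at P12. The propeptide protease gene Bmp1 stood at 0.25 (0.14 to 0.37) and the cross-linking enzyme gene Lox at 0.24 (0.09 to 0.38). Mep1a, a protease gene of kidney and gut, was lowest at -0.23 (-0.44 to -0.02).

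Of 10 collagen receptors, 3 were above the typical gene and 2 below, with a median of -0.05. Over all genes the shares were 21.2% above and 10.1% below, and over genes with at least 1000 reads 36.4% and 16.2%. Ddr1, a receptor tyrosine kinase bound by collagen, was highest at 0.61 (0.48 to 0.74), with 70.2 CPM at P17 and 46.1 CPM at P12, while the immune inhibitory receptor gene Lair1 was lowest at -0.41 (-0.59 to -0.23). Of 10 degradation genes, 4 were above and none below, against the same shares, with a median of -0.05. Mmp14, the membrane-bound matrix metalloproteinase gene, was the only gene of these lists over 2-fold different: it had 928 reads or 34.8 CPM at P17 and 195 reads or 14.5 CPM at P12, a log2 ratio of 1.26 (1.04 to 1.49). Mmp8, a neutrophil collagenase gene, was lowest at -0.41 (-0.75 to -0.07), and its interval reached the typical gene.

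The other basement membrane genes, mostly laminins, had 8 of 15 above the typical gene and 2 below, with a median of 0.02. For this list and the next, the shares were 21.2% above and 10.1% below over all genes. Over genes with at least 1000 reads they were 36.4% and 16.2%. Agrn, a heparan sulfate proteoglycan gene, was highest at 0.41 (0.26 to 0.57), and the laminin gene Lamc3 lowest at -0.23 (-0.32 to -0.14). In the list of other interstitial matrix genes, 5 of 14 were above and 2 below, with a median of -0.10. Vcan, a proteoglycan gene, was highest at 0.38 (0.28 to 0.48) and Bgn, the biglycan gene, lowest at -0.49 (-0.88 to -0.09).

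**Figure D5:**
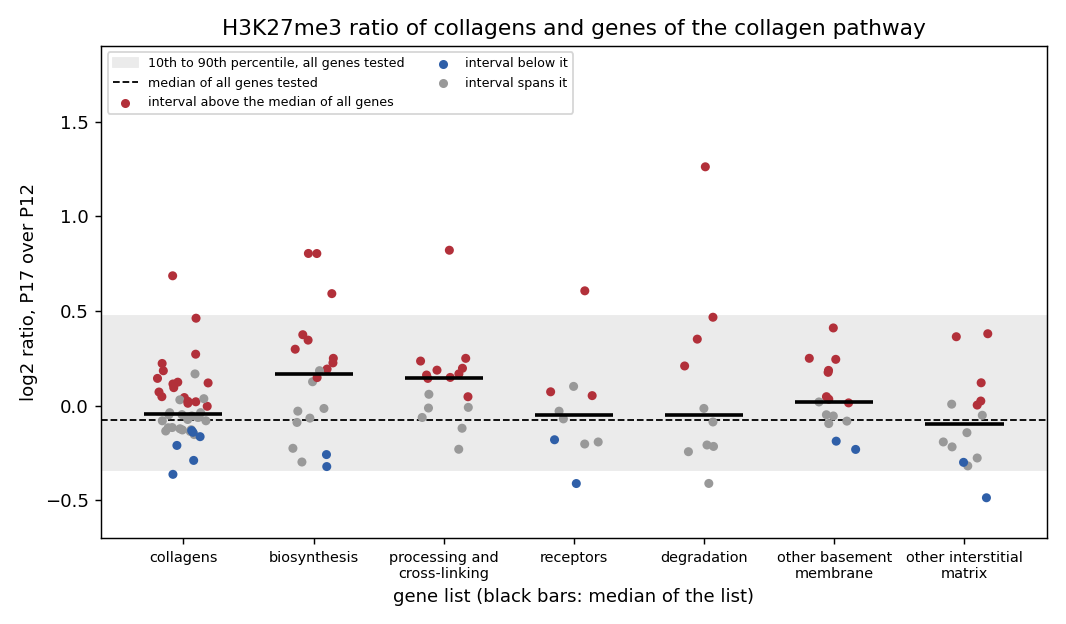
Log2 ratio of H3K27me3 reads, P17 over P12, for the 44 collagens and the genes of 6 related lists; each point is a gene, coloured by whether its interval lies above, below or across the median of all genes tested (dashed), and black bars are list medians. The medians are highest for biosynthesis (0.17) and for processing and cross-linking (0.15), and Mmp14 at 1.26 stands alone at the top.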

How the data were processed

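Per the labels, reads are from spermatocytes of WT CD1 mice; per the submitters' processing notes, they were aligned to mm9, with Bowtie, SAMtools and HTSeq named without role or version. The deposited files give raw read counts per gene symbol over gene bodies, which the file names credit to multiBamCov, without recorded normalization or input subtraction. Peak lists were not used here, since no mm9 annotation was at hand.

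Counts were scaled to each file's total (CPM). The log2 ratio, P17 over P12, used a pseudocount of 1 read scaled to each file, for symbols present once (310 other entries stayed in the totals) with at least 20 reads. Its 95% interval is exact and conditional (Clopper-Pearson), and covers counting error only. Pair differences are exact conditional odds ratios, and the intervals of the class-sum differences and those over all pairs of collagens are normal approximations. Python 3.11.15, scipy 1.17.1 and edgeR 4.0.16 (TMM factors only) were used. The intervals were tested on simulated counts that varied by counting error only, which does not test variation between files. RefSeq tables (GRCm38.p6) gave neighbours and promoter windows; all 44 symbols matched.

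All collagens could be named, and of each related list the highest and lowest ratio with at least 100 reads and genes over 2-fold different. Serpinh1, which ties with Fkbp10, and Plod1, Bmp1, Lox and Mia3 were added after values were seen. Apart from Mia3, which had no reads, all of these added genes were above the typical gene. No gene below it was added, though the biosynthesis list holds such genes. Members, classes, lists and pairs were chosen with earlier results of these data known. The comparison with genes of at least 1000 reads and the pair differences were added after the counts had been seen.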

Additional observations from a re-analysis of the deposited data

How the results depend on the processing

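Scaling by TMM or median-of-ratios factors raised the log2 ratio of all genes by 0.07 and 0.08, which changed the sign of 9 collagen ratios near 0 but left the same 17 collagens above and 6 below the typical gene. One called gene changed sign: Col24a1 stood at 0.0727 with TMM and 0.0762 with median-of-ratios factors, above the typical gene in both. With at least 100 reads required, or a pseudocount of 5 reads, 16 of the 17 remained above, all but Col5a2. Over 1.5-fold in place of 2-fold, 1 collagen (Col9a2) was higher and 0 lower, against 6.67% and 1.39% of all genes. Totals without multicopy entries, no filter beyond 1 read and a pseudocount of 0.5 kept the class and list medians within counting error and their counts within 1.5 times; so did the other class definitions for the 3 class medians they touch. With a 99% interval 15 collagens were above and 4 below. Against the median of genes with at least 1000 reads 15 were above (all but Col24a1 and Col5a2) and 6 below. The shares of all genes under either of these rules were not computed, so these counts have no background beside them. No paired analysis was possible because each stage had 1 file, and no replicate could be left out. The input samples were not used, and no separate replicate files were at hand. Differences in enrichment or background between the files therefore cannot be told apart from differences between stages. Short genes with few reads, such as Col10a1, allow no statement on small shifts.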
